A study of Homo sapiens with 12 samples.

Results

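CC chemokines are small secreted proteins that draw leukocytes along a gradient by binding G protein-coupled receptors, and macrophages are a main source of them in tumors. The 10 members described here were chosen by name from the CC chemokines that macrophages are known to secrete, and are not all of them. They were CCL2, CCL7, CCL8, CCL3, CCL3L1, CCL4, CCL4L2, CCL5, CCL20 and CCL22. All 10 were among the 58735 genes of the deposited table, and all 10 were among the 16046 genes that passed the filter on low counts. CCL2, CCL7 and CCL8 are the classical ligands of CCR2 and recruit monocytes. CCL3 and CCL4, the MIP-1 chemokines, their additional copies CCL3L1 and CCL4L2, and CCL5 attract monocytes, T cells and NK cells. CCL20 attracts CCR6-bearing dendritic cells and lymphocytes, and CCL22 attracts CCR4-bearing regulatory T cells.

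The libraries came from THP-1 cells, a human monocytic leukemia line, that had been treated with PMA to give tumor-associated macrophages (TAMs) and then kept in coculture, separated by a Transwell insert, beside the human pancreatic cancer line AsPC-1. In the control group the AsPC-1 cells carried an empty vector. In the OE-MMP28 group they carried a lentiviral vector that overexpressed MMP28, a secreted matrix metalloproteinase, after puromycin selection. The anti-IL-8 and anti-VEGFA groups were OE-MMP28 cocultures that also received a neutralising antibody to 1 of these factors, and no group received a control antibody. Each of the 4 groups had 3 libraries. The methods say in general that cell experiments were repeated independently, but do not say whether the libraries of a group came from separate cultures, so p-values measured only the spread between libraries, which may be technical. A single engineered line stood for each vector, so that a difference between the lines other than MMP28 cannot be told apart from the overexpression.

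Library totals ranged from 15852346 to 18701195 counts, and the 10 members together took 0.273% to 0.446% of them. A count of 3, about the upper 95% limit of the expected count when 0 is observed, corresponded to 0.16 to 0.195 CPM (the count scaled to library size). MMP28 had 0 counts in all 12 libraries, so the transgene of the cancer cells was not detected in these TAM libraries. Of 12 macrophage markers, 10 passed the filter on low counts, while CD68 (0 to 5 counts a library) and MRC1 (0 to 4 counts) did not. The 12 markers summed to 2330 to 2530 CPM in control, 2510 to 3750 CPM in OE-MMP28, 3090 to 3840 CPM in anti-IL-8 and 2960 to 3170 CPM in anti-VEGFA. In this sum both antibody groups lay above control without overlap, but CD14 weighed heavily in it. The CD14 mean was 752 CPM in control, 1580 CPM in anti-IL-8 and 1390 CPM in anti-VEGFA. Not every marker rose: the MSR1 mean was 258 CPM in control, 199 CPM in anti-IL-8 and 175 CPM in anti-VEGFA. The 11 epithelial markers of AsPC-1 cells summed to 4.79 to 5.86 CPM in control, 2.64 to 3.56 CPM in OE-MMP28, 3.5 to 4.96 CPM in anti-IL-8 and 4.57 to 4.64 CPM in anti-VEGFA. Of these, only EPCAM, a defining epithelial surface protein, was at 0 in all libraries, and MUC1 had 28 to 65 counts a library. In the list for T and NK cells, 3 of 6 markers were at 0 throughout, but GNLY had 546 to 1040 counts and NKG7 31 to 106 counts a library, and the list summed to 41.1 to 42.3 CPM in control, 35.6 to 69.1 CPM in OE-MMP28, 49.8 to 65.9 CPM in anti-IL-8 and 35.6 to 50.2 CPM in anti-VEGFA. The 6 markers of proliferating undifferentiated THP-1 cells summed to 39.3 to 44.5 CPM in control and 37.1 to 46.1 CPM in OE-MMP28. In anti-IL-8 they summed to 33.5 to 38.7 CPM, and in anti-VEGFA to 38.3 to 47.6 CPM. Their members moved both ways: from control to anti-IL-8 the ELANE mean went from 4.93 to 10.4 CPM and the MKI67 mean from 15.7 to 9.53 CPM. The part of all these marker levels in the results was not tested. The mitochondrial share of counts was 7.44% to 9.95% in control, 8.41% to 12.3% in OE-MMP28, 9.01% to 11.3% in anti-IL-8 and 6.92% to 17.8% in anti-VEGFA libraries, and its part in the results was not tested beyond a fit that carried it as a covariate. In bulk RNA, fewer cells that express a gene and less RNA per cell cannot be told apart.

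The members spanned a wide range of levels. Compared per length, as FPKM (fragments scaled to gene length and library size), CCL20 was the most abundant at a mean of 1250 FPKM over the 12 libraries, above 99.8% of the tested genes. CCL5 at 283 FPKM, CCL3L1 at 261 FPKM and CCL2 at 227 FPKM followed, and the ranges of these 3 genes overlapped. CCL3 stood at 84.8 FPKM, CCL22 at 31.5 FPKM and CCL4L2 at 27.6 FPKM, the last 2 with overlapping ranges. CCL7 and CCL4 were close to each other, at 15 and 14.2 FPKM. CCL8 was the least abundant at 3.7 FPKM, with a range from 1.02 to 13.2 FPKM. Of the 10 genes, 8 lie on chromosome 17: the CCR2 ligands between 34255218 and 34321402, and the MIP-1 genes and CCL5 between 35871491 and 36212878 (GRCh38). CCL20 lies on chromosome 2 and CCL22 on chromosome 16.

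**Figure D1:**
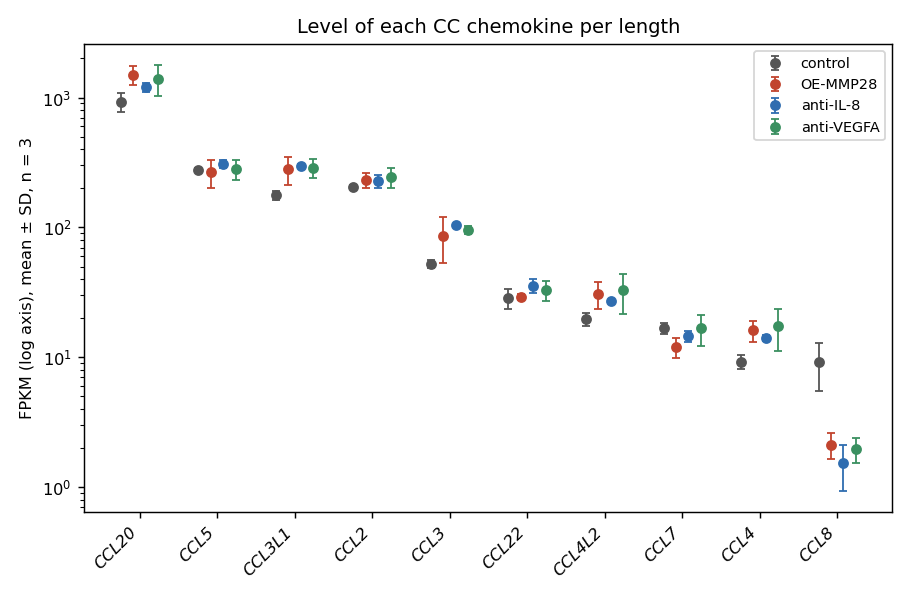
Level of each CC chemokine per length in FPKM on a log axis, with 1 point for the mean of each group of 3 libraries and bars for the SD. CCL20 lies highest in every group, and CCL8 is the gene whose control mean of 9.17 FPKM stands apart from the other groups at 1.53 to 2.13 FPKM.

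The first comparison asked how the TAMs differed when the cocultured cancer cells overexpressed MMP28. The data show opposite movements within the family: CCL8, a CCR2 ligand, fell 4.28-fold, while CCL3L1 and CCL4, both MIP-1 genes, rose by 1.59-fold and 1.74-fold. The other members, CCL2, CCL7, CCL3, CCL4L2, CCL5, CCL20 and CCL22, did not pass the test. In edgeR's quasi-likelihood fit, with p-values adjusted over all genes by the method of Benjamini and Hochberg, 3 of 10 members passed an adjusted p of 0.05, against 3.16% of all genes tested. Of these, 2 were higher, against 0.523% of all genes, and 1 was lower, against 2.64%. The median log2 fold change of the 10 members was 0.4, beside 0.023 over all genes. At an unadjusted p of 0.05, 5 members were higher and 2 lower, against 5.93% and 8.61% of all genes.

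CCL8 (ENSG00000108700, chr17:34319036-34321402, plus strand) encodes MCP-2. It had 178, 291 and 132 counts in control replicates 1 to 3, or 10.5, 16.8 and 7.82 CPM. In OE-MMP28 it had 61, 46 and 34 counts, or 3.35, 2.69 and 2.12 CPM. Every OE-MMP28 library was below every control library, and the spread among the controls was wider than that of any other group. The log2 fold change was -2.10 (SE 0.29, 95% confidence interval -2.72 to -1.48, edgeR adjusted p = 1.7e-04), a 4.28-fold lower level. The call held in all 23 alternatives that used an adjusted p, with a log2 fold change from -2.32 to -1.65.

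CCL2 and CCL7, the other CCR2 ligands, gave no call. CCL2 (MCP-1), a main monocyte attractant, was at 399 to 422 CPM in control and 405 to 526 CPM in OE-MMP28. These ranges overlapped, and the log2 fold change was 0.17 (95% confidence interval -0.14 to 0.48, edgeR adjusted p = 0.66), so that a rise above 0.48 lay outside the interval. CCL7 (MCP-3) was at 13, 15.5 and 15.4 CPM in control and at 10.6, 8.54 and 12.2 CPM in OE-MMP28. The CCL7 groups did not overlap, but the difference of -0.49 (SE 0.19) had an edgeR adjusted p of 0.23. The difference between the changes of CCL8 and of its neighbors was not tested.

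The MIP-1 genes include near-identical copies. For CCL3 and CCL3L1 the bases that separate them are shown, because the division of reads between copies rests on them. The coding sequences below come from GENCODE 29 on GRCh38, 5′ to 3′ on the coding strand, with capitals at the bases that differ. CCL3 (chr17:36088672-36090058, minus strand) and CCL3L1 (chr17:36195286-36196673, minus strand) differed at 9 of 279 aligned bases, an identity of 96.8%, and CCL3L1 held 3 extra bases, also in capitals.
CCL3: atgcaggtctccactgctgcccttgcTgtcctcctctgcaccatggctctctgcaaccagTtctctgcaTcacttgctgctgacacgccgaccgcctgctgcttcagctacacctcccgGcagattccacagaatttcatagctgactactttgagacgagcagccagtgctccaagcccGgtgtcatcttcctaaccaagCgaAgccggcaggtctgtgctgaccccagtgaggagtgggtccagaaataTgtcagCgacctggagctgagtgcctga
CCL3L1: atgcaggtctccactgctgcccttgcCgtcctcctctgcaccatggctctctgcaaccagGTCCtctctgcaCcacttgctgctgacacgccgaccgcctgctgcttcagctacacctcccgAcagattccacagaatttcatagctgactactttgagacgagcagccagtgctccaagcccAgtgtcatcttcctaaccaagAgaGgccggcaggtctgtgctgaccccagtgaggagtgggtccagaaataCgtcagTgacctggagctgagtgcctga
Over the whole transcript, 9.88% of the 50-base windows of CCL3 also occurred in CCL3L1. For 100-base windows the share was 0%. How reads that matched both copies were counted is not given in the sources used here, so each copy's level is uncertain by the reads in such windows.

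CCL3L1 (ENSG00000276085), an additional copy of the gene for the inflammatory chemokine MIP-1 alpha, was at 260, 244 and 287 CPM in control and at 400, 327 and 530 CPM in OE-MMP28. Every OE-MMP28 library was above every control library. The log2 fold change was 0.67 (SE 0.16, 95% confidence interval 0.33 to 1.01, edgeR adjusted p = 0.027), and the call held in 16 of 23 alternatives. CCL3 (ENSG00000277632), the original MIP-1 alpha gene, was at 75.5, 77.1 and 86 CPM in control and at 141, 75.9 and 176 CPM in OE-MMP28. OE-MMP28 replicate 2 lay at the control level while the other two libraries lay well above it, so the groups overlapped. The CCL3 log2 fold change was 0.72 (SE 0.20, edgeR adjusted p = 0.061), and without OE-MMP28 replicate 2 it was 0.99 with an adjusted p of 6.6e-05.

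CCL4 (ENSG00000275302), the gene for MIP-1 beta, was at 19.2, 16.5 and 21.4 CPM in control and at 36, 25.8 and 37.5 CPM in OE-MMP28. The groups did not overlap, and the log2 fold change was 0.80 (SE 0.20, 95% confidence interval 0.37 to 1.23, edgeR adjusted p = 0.039). This call held in 12 of 23 alternatives. CCL4L2 (ENSG00000276070), the additional copy, was at 30.3, 24.4 and 29.2 CPM in control and at 44.4, 32.9 and 53.2 CPM in OE-MMP28. These groups did not overlap either, but the difference of 0.64 (SE 0.20) had an edgeR adjusted p of 0.11.

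Both added copies gave more counts than the originals in every library. The CCL3L1 count was 2.55 to 4.31 times that of CCL3, and the highest ratio was that of OE-MMP28 replicate 2, whose CCL3 was low. In the other 11 libraries this ratio stayed between 2.55 and 3.44. The CCL4L2 count was 1.23 to 1.57 times that of CCL4. When the counts of each pair were summed, CCL3 with CCL3L1 was 0.68 higher in OE-MMP28 (SE 0.17, edgeR adjusted p = 0.03), and CCL4 with CCL4L2 was 0.71 higher (SE 0.20, adjusted p = 0.062) and no longer passed the threshold.

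**Figure D2:**
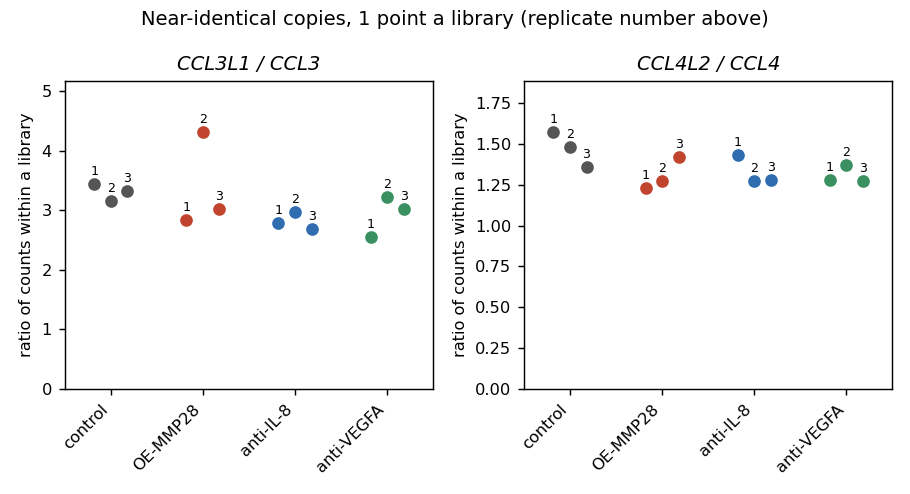
Ratio of counts of the near-identical copies within each library, CCL3L1 over CCL3 (left) and CCL4L2 over CCL4 (right), with 1 point a library and its replicate number above it. The point at 4.31 for OE-MMP28 replicate 2 stands above all others on the left, while all points on the right lie between 1.23 and 1.57.

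CCL5 (RANTES), which attracts T cells and monocytes, gave no call. It was at 420 to 439 CPM in control and at 330 to 516 CPM in OE-MMP28, and the OE-MMP28 libraries lay on both sides of the controls. Its log2 fold change was -0.08 (95% confidence interval -0.41 to 0.26, edgeR adjusted p = 0.89). CCL20, the CCR6 ligand, was at 1370, 1340 and 1800 CPM in control and at 2230, 2120 and 2870 CPM in OE-MMP28. The CCL20 groups did not overlap, yet the difference of 0.68 (SE 0.19, 95% confidence interval 0.28 to 1.07) had an edgeR adjusted p of 0.061. CCL22, the CCR4 ligand, was at 74.6 to 102 CPM in control and 81 to 90 CPM in OE-MMP28, with a log2 fold change of 0.03 (95% confidence interval -0.28 to 0.35, edgeR adjusted p = 0.95). Counting all 10 members, 4 had OE-MMP28 libraries wholly above and 2 wholly below the controls, against 9.63% and 11.6% of all genes.

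The calls of CCL3L1 and CCL4 were near the threshold. Leaving out any control library, OE-MMP28 replicate 1 or OE-MMP28 replicate 3 left only CCL8 called, while leaving out OE-MMP28 replicate 2 gave 6 calls, with CCL3, CCL4L2 and CCL20 added to CCL8, CCL3L1 and CCL4.

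**Figure D3:**
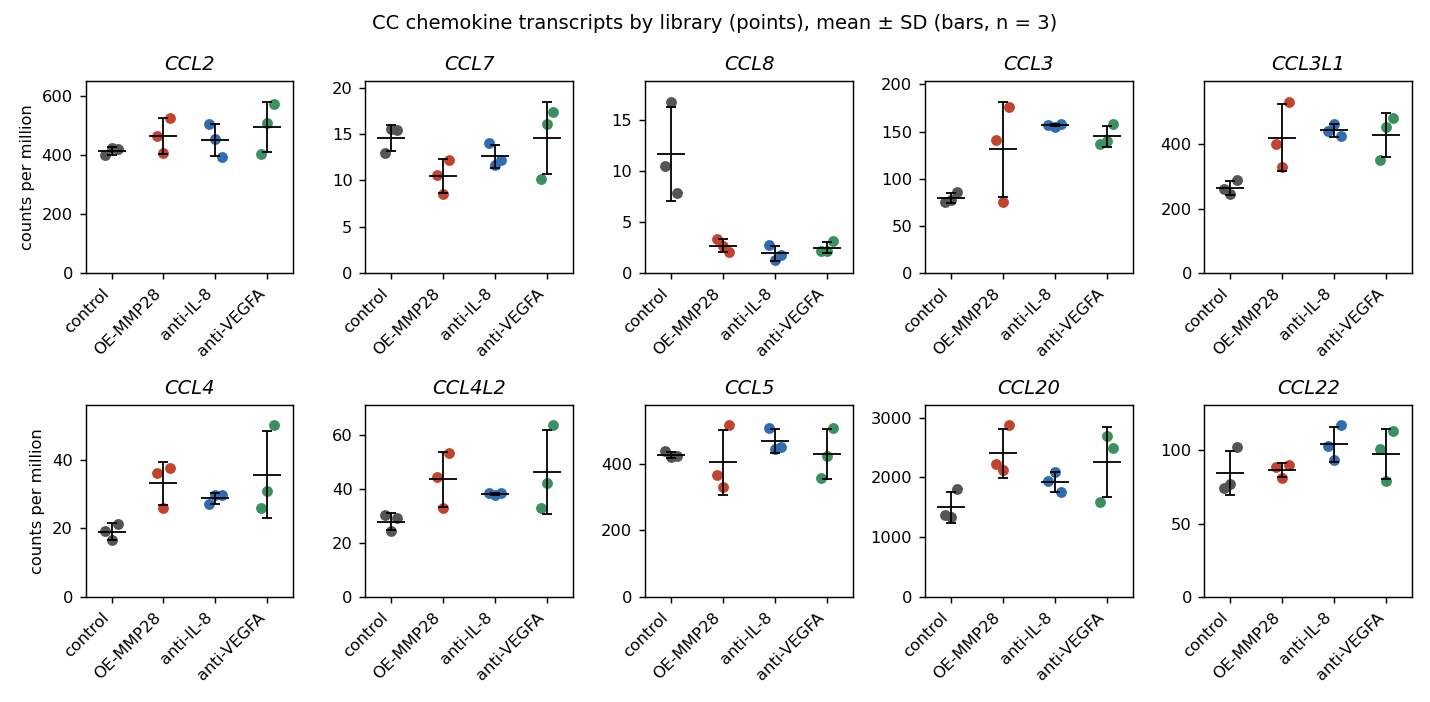
CPM of each member in each of the 12 libraries, with 1 panel a gene, points for the 3 libraries of a group, and bars for the mean ± SD. The CCL8 points of the 3 OE-MMP28 based groups all lie below the lowest control at 7.82 CPM, and the CCL3L1 and CCL4 points of those groups all lie above the highest controls at 287 and 21.4 CPM.

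The next comparisons asked whether neutralising IL-8 or VEGFA, within the OE-MMP28 coculture, altered the same transcripts. No member passed the adjusted threshold in either comparison. For anti-IL-8 against OE-MMP28, edgeR called 0 of 10 members, against 0% of all genes tested (2259 genes by DESeq2), and for the members DESeq2, limma voom and limma on log2 FPKM also gave 0. At an unadjusted p of 0.05 the count was 0 of 10, against 29.3% of all genes. For anti-VEGFA against OE-MMP28, edgeR called 0 of 10, against 0.343% of all genes, and the other tools again gave 0. At an unadjusted p of 0.05 only CCL7 passed, against 18.8% of all genes.

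CCL8 was at 2.77, 1.3 and 1.75 CPM in anti-IL-8 and at 2.14, 2.22 and 3.15 CPM in anti-VEGFA. Both ranges overlapped that of OE-MMP28. The log2 differences from OE-MMP28 were -0.50 (95% confidence interval -1.20 to 0.20) for anti-IL-8 and -0.12 (95% confidence interval -0.79 to 0.55) for anti-VEGFA. Neither interval reached upward to the 2.10 by which CCL8 had fallen. At 22 to 59 counts a library in these groups, CCL8 had the widest intervals of the family.

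CCL3 was at 157, 155 and 158 CPM in anti-IL-8 and at 137, 140 and 158 CPM in anti-VEGFA. Both antibody groups lay within the range of the OE-MMP28 libraries. The log2 differences from OE-MMP28 were 0.26 (95% confidence interval -0.16 to 0.68) and 0.15 (-0.27 to 0.57). Without OE-MMP28 replicate 3 the anti-IL-8 difference became 0.55 with an edgeR adjusted p of 0.035, and without OE-MMP28 replicate 2 it became -0.01 with an adjusted p of 0.97, so that its direction rested on single libraries.

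CCL3L1 was at 438, 461 and 424 CPM in anti-IL-8 and at 349, 453 and 479 CPM in anti-VEGFA. The differences from OE-MMP28 were 0.07 (95% confidence interval -0.27 to 0.41) and 0.03 (-0.31 to 0.37) on the log2 scale. CCL4 was at 27, 29.7 and 29.8 CPM in anti-IL-8 and at 26, 30.8 and 50 CPM in anti-VEGFA, where replicate 3 stood above the rest. Its log2 differences were -0.20 (95% confidence interval -0.62 to 0.23) and 0.11 (-0.31 to 0.53). The copy CCL4L2 was at 37.8 to 38.5 CPM in anti-IL-8 and at 33.1 to 63.5 CPM in anti-VEGFA, again with replicate 3 the highest.

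CCL7 was at 14, 11.7 and 12.2 CPM in anti-IL-8 and at 10.2, 16.1 and 17.4 CPM in anti-VEGFA. Of its anti-VEGFA libraries, replicates 2 and 3 lay above the OE-MMP28 range and replicate 1 within it, and the log2 difference was 0.48 (SE 0.19, unadjusted p = 0.022 and edgeR adjusted p = 0.20). CCL20 was at 1940, 2090 and 1750 CPM in anti-IL-8, each below every OE-MMP28 library, with a log2 difference of -0.32 (95% confidence interval -0.72 to 0.07, edgeR adjusted p = 0.26). In anti-VEGFA, CCL20 was at 1590, 2700 and 2490 CPM, and the difference was -0.09 (95% confidence interval -0.49 to 0.30). CCL22 was at 93.2 to 117 CPM in anti-IL-8, each library above every OE-MMP28 library, with a log2 difference of 0.27 (95% confidence interval -0.05 to 0.58, edgeR adjusted p = 0.24). CCL2 and CCL5 differed from OE-MMP28 by -0.05 and 0.21 in anti-IL-8 and by 0.09 and 0.09 in anti-VEGFA. Without OE-MMP28 replicate 3, CCL5 in anti-IL-8 was 0.44 higher with an edgeR adjusted p of 0.036, in a fit that called 4125 of all genes.

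**Figure D4:**
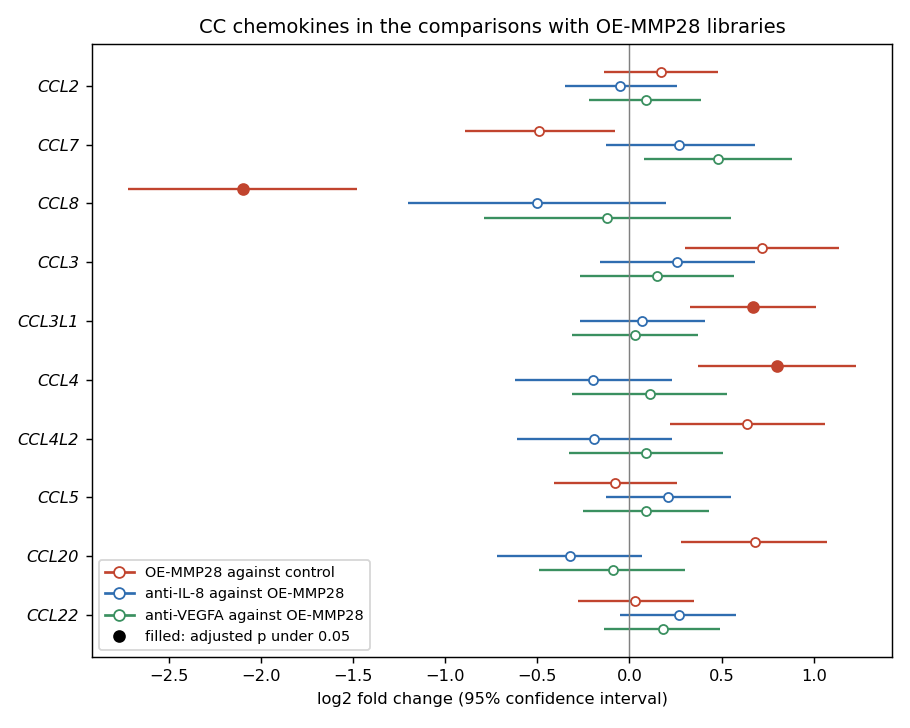
Log2 fold change of each member with its 95% confidence interval in 3 comparisons, OE-MMP28 against control (red), anti-IL-8 against OE-MMP28 (blue) and anti-VEGFA against OE-MMP28 (green), with filled points for an adjusted p under 0.05. The filled points are CCL8 at -2.10, CCL3L1 at 0.67 and CCL4 at 0.80, and no antibody point is filled.

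Both antibody groups were also set against the control coculture. These comparisons use the same control libraries as the first one, so their values stand side by side and are not independent of it. For anti-IL-8 against control, edgeR called 4 of 10 members, against 20.7% of all genes, with 3 higher (9.77% of all genes) and 1 lower (10.9%). These were CCL8 at -2.59 (SE 0.31, adjusted p = 2.3e-05), CCL3 at 0.98 (SE 0.20, adjusted p = 0.0038), CCL3L1 at 0.74 (SE 0.16, adjusted p = 0.0057) and CCL4 at 0.60 (SE 0.21, adjusted p = 0.046). For anti-VEGFA against control, 5 of 10 were called, against 11% of all genes, with 4 higher (5.6% of all genes) and 1 lower (5.37%). These were CCL8 at -2.22 (SE 0.30, edgeR adjusted p = 9.4e-05), CCL3 at 0.87 (SE 0.20, adjusted p = 0.011), CCL3L1 at 0.70 (SE 0.16, adjusted p = 0.011), CCL4 at 0.90 (SE 0.20, adjusted p = 0.0093) and CCL4L2 at 0.73 (SE 0.20, adjusted p = 0.028). CCL20 was 0.59 above control in anti-VEGFA (adjusted p = 0.054) and 0.36 above in anti-IL-8 (adjusted p = 0.18). The anti-VEGFA count fell to 1 without control replicate 2, where 662 of 16484 genes were called. It was 2 without control replicate 1 or anti-VEGFA replicate 3, where 788 of 16513 and 1105 of 16489 genes were called. The anti-IL-8 count was 7 when only anti-IL-8 and control were fitted, in a fit that called 6039 of 15161 genes.

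Between the antibodies, edgeR called 0 of 10 members for anti-VEGFA against anti-IL-8, against 0.199% of all genes. None passed an unadjusted p of 0.05, against 15% of all genes, and DESeq2 and both limma fits gave 0. The log2 differences ran from -0.12 for CCL5 to 0.38 for CCL8, whose 95% confidence interval was -0.33 to 1.09. In the test for any difference among the 4 groups, 4 of 10 members passed, against 17.2% of all genes, and these were CCL8 (edgeR adjusted p = 1.0e-05), CCL3 (0.014), CCL3L1 (0.015) and CCL4 (0.023). For all 4, the control group stood first or last in the order of group means, and no pair among the 3 groups with MMP28-overexpressing cancer cells passed the edgeR test. This count was 1 without control replicate 1 or 2, where 1168 of 16513 and 916 of 16484 genes were called. It was 7 without anti-VEGFA replicate 1, where 3062 of 16402 genes were called.

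Promoters from RefSeq, 250 bases before to 50 bases after a start site on GRCh38.p14, were matched for 6 of the 10 members, by symbol or by a start within the deposited gene. CCL2, CCL4, CCL4L2 and CCL5 had none. The start matched to CCL3L1 carries the name CCL3L3 in RefSeq. The stretch from 100 to 27 bases before the start is printed for CCL3 and CCL3L1, both of which passed the test among groups, with the differing base in capitals: the 2 promoters were 98.6% identical there, with 1 difference in 74 bases. This stretch was chosen because it holds no gap and lies outside the annotated exons, and over all 250 bases before the start the windows were less alike, with at least 22 single-base substitutions, insertions or deletions between them.
CCL3, chr17:36090170-36090243, minus strand: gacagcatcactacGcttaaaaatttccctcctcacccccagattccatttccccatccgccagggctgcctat
CCL3L1, chr17:36196785-36196858, minus strand: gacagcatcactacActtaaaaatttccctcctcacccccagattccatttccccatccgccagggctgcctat
The matched windows were searched on both strands for 3 motifs. These were the core of the interferon-stimulated response element (GAAA, any 2 bases, GAAA), found in 3.57% of all 35116 promoters, the AP-1 site TGANTCA, found in 7.71%, and the NF-kB consensus, found in 11.3%. CCL7 held an AP-1 match 51 bases before its start, CCL20 an NF-kB match 79 bases before its start, and CCL22 overlapping NF-kB matches 186 and 185 bases before its start. The windows of CCL8, CCL3 and CCL3L1 held none of the 3. The CCL8 window lies inside the first exon of the GENCODE 29 model, whose start is farther upstream. For CCL20 the deposited gene starts at 227805739 on chromosome 2, upstream of its window, which begins at 227813592.

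Of 13 CC chemokine receptors examined, which include receptors of other ligands, 4 passed the filter on low counts. CCR1, the receptor of CCL3 and CCL5 on myeloid cells, was at 265, 267 and 244 CPM in control and at 189, 193 and 185 CPM in OE-MMP28, with no overlap. It fell by 0.46 on the log2 scale (SE 0.12, edgeR adjusted p = 0.049), the only receptor of the 4 to pass, against 2.64% of all genes called lower. CCR7, the lymph node homing receptor and not a receptor of these members, was at 107 CPM (SD 3.15) in control and 86.6 CPM (SD 13.5) in OE-MMP28, a difference of -0.30 with an edgeR adjusted p of 0.27. CCRL2, a non-signalling binding receptor, was at 17 CPM in both groups, and CCR10 had 4 to 24 counts a library. Other receptors of these ligands were nearly absent from the TAMs: CCR2 had at most 15 counts in any library and CCR4 at most 3, and CCR6 had 0 counts in all 12 libraries.

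Among CC chemokines outside the 10, 4 of the 16 in the table passed the filter. By edgeR 0 of these 4 passed in OE-MMP28, against 3.16% of all genes. At an unadjusted p of 0.05, 1 was higher and 1 lower, against 5.93% and 8.61% of all genes. The most abundant was CCL1, a CCR8 ligand named here after its values were seen, at 851 CPM (SD 67.9) in control and 595 CPM (SD 129) in OE-MMP28, with a log2 difference of -0.52 (edgeR adjusted p = 0.13).

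CCL8 is known to be inducible by interferon, as are CXCL10 and CXCL11, and the signalling factors of that pathway were measured beside it. Of 17 interferon signalling factors tested, edgeR called 6 lower and 0 higher in OE-MMP28 than in control (7 lower and 2 higher at an unadjusted p of 0.05), against 2.64% lower and 0.523% higher of all genes (8.61% and 5.93% unadjusted), with a median log2 fold change of -0.33. The 3 with the smallest p were USP18, an interferon feedback protease, at -2.89 (SE 0.20, edgeR adjusted p = 1.7e-08), STAT2 at -1.41 (SE 0.14, adjusted p = 3.6e-06) and IRF7 at -1.65 (SE 0.20, adjusted p = 2.2e-05), both transcription factors of the interferon response. USP18 was at 110 CPM (SD 16.3) in control and 14.8 CPM (SD 4.67) in OE-MMP28. Of 9 CXC and other chemokines tested, 3 were lower and 0 higher (3 lower and 1 higher at an unadjusted p of 0.05), beside the same shares of all genes. CXCL10, an attractant of CXCR3-bearing T cells, had 818, 1104 and 734 counts in control and 25, 4 and 6 counts in OE-MMP28, with a log2 fold change of -6.24 (SE 0.34, edgeR adjusted p = 1.3e-09). CXCL11, with the same receptor, was at -4.02 (SE 0.42, adjusted p = 4.0e-06), and CXCL5, which draws neutrophils, was at -0.95 (SE 0.18, adjusted p = 0.0032). In neither antibody group did any of these 6 genes pass the test against OE-MMP28. Whether the interferon factors have a part in the CCL8 difference was not tested.

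**Figure D5:**
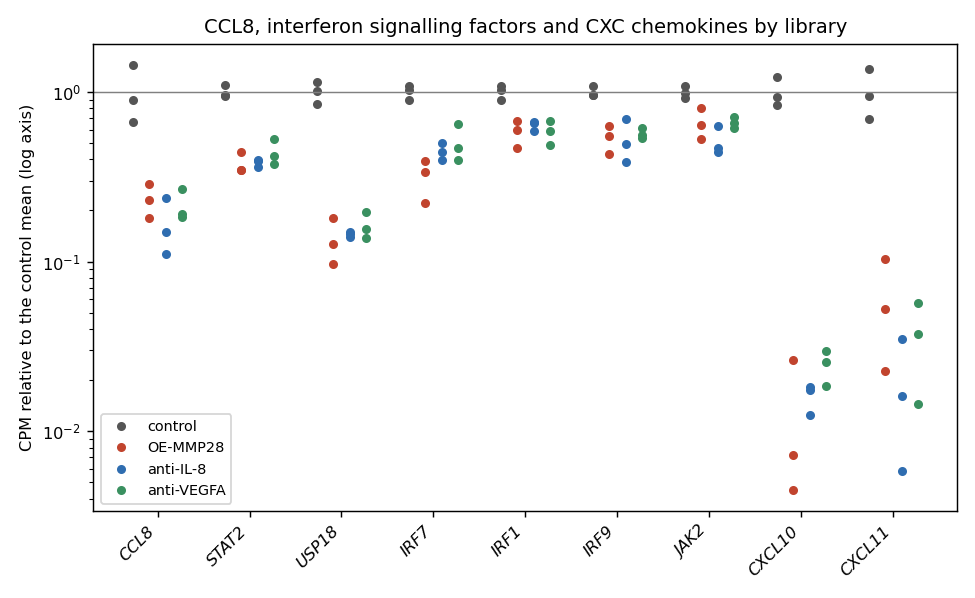
CPM of CCL8, the 6 interferon signalling factors called lower in OE-MMP28, CXCL10 and CXCL11 in each library, divided by the control mean of each gene, on a log axis. For all 9 genes the points of the 3 groups with MMP28-overexpressing cancer cells lie below every control point.

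NF-kB and AP-1 are the transcription factors best known to induce the MIP-1 genes and CCL20. Of 18 NF-kB factors and feedback genes tested, 0 passed in OE-MMP28 by edgeR, and 3 were higher and 0 lower at an unadjusted p of 0.05, against 5.93% higher and 8.61% lower of all genes, at a median log2 fold change of 0.08. Of 15 AP-1 factors and mRNA decay genes, 2 were lower, against 2.64% of all genes, and 0 higher (3 lower and 0 higher at an unadjusted p of 0.05): ATF3, a stress-induced repressor, at -0.51 (SE 0.11, edgeR adjusted p = 0.015), and ZFP36L2, an mRNA decay factor, at -0.47 (SE 0.12, adjusted p = 0.031). In anti-VEGFA against OE-MMP28 the AP-1 subunits FOS at -1.05 (SE 0.16, edgeR adjusted p = 0.01) and FOSB at -1.30 (SE 0.26, adjusted p = 0.038) were lower. Among 12 tested genes of chemokine processing and binding, the count for OE-MMP28 was 0 by edgeR, and at an unadjusted p of 0.05 it was 2 higher and 1 lower. Among 12 genes of chemokine receptor signalling it also called 0, with 0 higher and 2 lower at that unadjusted p.

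For the 4 members that passed the test among groups, the protein-coding genes outside the family with the most similar log2 CPM over the 12 libraries were ranked among 13064 genes. CCL8 was most like GNB4, a G protein subunit (Pearson r = 0.964), and TRIM69 (r = 0.952). CCL3 was most like ZFAND2B (r = 0.969) and ANKZF1 (r = 0.967), CCL3L1 most like DPH7 (r = 0.951) and G0S2 (r = 0.938), and CCL4 most like CTSK, a lysosomal protease (r = 0.898), and GALR2 (r = 0.863). These values describe libraries of 4 groups in which the controls stood apart from the rest, and they carry no test.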

How the data were processed

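Bulk RNA of TAMs was sequenced in 12 libraries. The authors deposited 1 table of raw counts per gene and of FPKM (fragments scaled to gene length and library size) for 58735 genes. Per the submitters' processing notes the tools were HISAT2 2.0.5 and featureCounts 1.5.0-p3. Strand and multi-mapping settings are not given in the sources used here. Gene IDs and coordinates matched GENCODE 29 on GRCh38.

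From the deposited counts, edgeR 4.0.16 in R 4.3.3 was used: filterByExpr with the 4 groups (16046 genes kept), TMM normalization, 1 coefficient per group over all 12 libraries, the quasi-likelihood test, and Benjamini-Hochberg adjustment over all tested genes with a threshold of 0.05. CPM used TMM-scaled totals. SE was the absolute log2 fold change divided by the root of F, at edgeR's default prior count. The log2 CPM used for correlations between genes or libraries had a prior count of 2. The procedure was tested on simulated data. Alternatives were DESeq2 1.42.0, limma 3.58.1 (voom, or log2 of the deposited FPKM plus 1 or 0.1), other filters and scalings, fits of only 2 groups, a replicate block, a mitochondrial covariate, summed copies, an unadjusted p and each library left out. Intervals from counts cover counting error and library spread only.

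The members and lists were chosen with earlier results of these data known. Named genes were every member, CC chemokine receptors with a mean of at least 10 counts, up to 3 genes per list with the smallest p among those past the threshold in OE-MMP28 against control or an antibody against OE-MMP28, and the 2 most similar protein-coding genes for each member past the test among groups. Replicate numbers were not taken to pair the samples. Sequences came from GENCODE 29 transcripts and from RefSeq promoters on GRCh38.p14. Figures were drawn with matplotlib. Some genes of the lists and some sequences are not reported here, and the list counts leave those genes out.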

Additional observations from a re-analysis of the deposited data

How the results depend on the processing

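Over 24 alternatives, the 10 members gave 1440 log2 fold changes, of which 1320 kept their direction and side of the threshold, 42 lost and 34 gained a call, and 44 changed sign. Those that changed sign were not called. In OE-MMP28 against control, 3 members were called; the count was 7 by unadjusted p, 5 by DESeq2, 6 with no filter, and 1 with limma on log2(FPKM + 1) or log2(FPKM + 0.1), where CCL8 alone remained. It was 1 to 6 when 1 library was left out. The cause of these differences was not tested. Unadjusted p gave 1 member for anti-VEGFA against OE-MMP28. Fitting only the 2 groups gave 7 for anti-IL-8 against control, in a fit that called 6039 of 15161 genes. With 1 library left out, the count ranged from 0 to 2 for anti-IL-8 against OE-MMP28, from 1 to 6 for anti-VEGFA against control, and from 1 to 7 for the test among the 4 groups. For anti-VEGFA against anti-IL-8 it was 0 under every alternative.

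Same-numbered libraries deviated together by a correlation from -0.16 to 0.24, and differently numbered ones by -0.32 to 0.34. With 3 libraries a group these values cannot settle pairing, and the numbers were not taken as pairs. With the replicate number as a block, 3 members were called in OE-MMP28 against control, 0 in each antibody group against OE-MMP28, 4 in anti-IL-8 against control, 6 in anti-VEGFA against control and 5 in the test among groups. Of the 16046 genes tested, the block called 514 in OE-MMP28 against control, 795 in anti-IL-8 and 37 in anti-VEGFA against OE-MMP28. It called 3444 in anti-IL-8 against control, 1756 in anti-VEGFA against control and 2953 in the test among groups.

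Small differences changed sign. CCL22 in OE-MMP28 against control was -0.01 with library totals, and -0.05 to 0.19 with 1 library left out. CCL5 in anti-VEGFA against control was 0 with limma voom, both FPKM fits, no filter and the replicate block, -0.03 with library totals and -0.06 with the mitochondrial covariate, and -0.11 to 0.13 with 1 library left out. CCL7 in that comparison was 0.02 with only the 2 groups and -0.14 to 0.20 with 1 library left out. The other ranges with 1 library left out were -0.28 to 0.05 for CCL5 in OE-MMP28 against control. In anti-IL-8 against OE-MMP28 they were -0.13 to 0.07 for CCL2, -0.01 to 0.55 for CCL3 and -0.08 to 0.29 for CCL3L1. In anti-VEGFA against OE-MMP28 they were -0.03 to 0.21 for CCL2, -0.32 to 0.06 for CCL8, -0.13 to 0.42 for CCL3, -0.13 to 0.24 for CCL3L1, -0.22 to 0.29 for CCL4, -0.21 to 0.28 for CCL4L2, -0.04 to 0.31 for CCL5 and -0.23 to 0.11 for CCL20. In anti-VEGFA against anti-IL-8 they were -0.22 to 0.02 for CCL22, -0.15 to 0.08 for CCL3L1, -0.04 to 0.49 for CCL4 and -0.03 to 0.47 for CCL4L2.

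The counts over all genes moved more. For anti-IL-8 against OE-MMP28, edgeR called 0 genes, against 2259 by DESeq2, 1438 with no filter, 1739 with the mitochondrial covariate, 4125 without OE-MMP28 replicate 3. Leaving out anti-VEGFA replicate 2 gave 1166. For anti-VEGFA against OE-MMP28 the counts were 55 by edgeR, 429 by DESeq2, 400 with no filter, 310 with the covariate, 1 with only the 2 groups and 1402 without OE-MMP28 replicate 3. For anti-VEGFA against anti-IL-8 they were 32 by edgeR, 252 by DESeq2, 277 with no filter and 176 with the covariate, and for anti-IL-8 against control 3317 by edgeR and 6039 with only the 2 groups. CCL8 had 22 to 61 counts in the libraries outside the control group, which limits the precision of its values there.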

Other observations

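Against the control coculture, the lists around the members gave further calls in the antibody groups by edgeR with Benjamini-Hochberg adjustment. These comparisons share their control libraries with OE-MMP28 against control. Of 18 NF-kB factors and feedback genes, 4 were higher and 3 lower in anti-IL-8, and 4 were higher and 0 lower in anti-VEGFA, against 9.77% higher and 10.9% lower of all genes in anti-IL-8 and 5.6% higher and 5.37% lower in anti-VEGFA. Of 17 interferon signalling factors, 1 was higher and 7 lower in anti-IL-8, and 0 were higher and 6 lower in anti-VEGFA. Of 15 AP-1 factors and mRNA decay genes, 0 were higher and 5 lower in anti-IL-8, and 2 were higher and 4 lower in anti-VEGFA. Of 4 CC chemokine receptors, CCR1 was lower in both, by -0.45 in anti-IL-8 and -0.74 in anti-VEGFA on the log2 scale.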
